A study of Mus musculus with 11 samples.

Results

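Expression of 10 genes for secreted acute-phase and antimicrobial proteins was followed in cultured mouse monocytes: Saa3, Lcn2, S100a8, S100a9, Slpi, Wfdc17, Wfdc21, Hp, Lyz1 and Lyz2. They were taken by gene symbol from a table of 21860 genes, and all 10 were found, each in 1 row. The genes were chosen on their measured levels across these samples, above all in the single sample that received neither TGFb nor IL34, so the levels of that sample are given as a description without a test. RNA sequencing was done on 11 samples of CD11b-low EpCAM+ cells, sorted on day 6 from cultures of bone marrow monocytes, which are called mLC-like cells after the monocyte-derived Langerhans cells (mLCs) of the epidermis.

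All 5 groups received GM-CSF (20 ng/ml), a growth factor of monocytes. The group GMCSF+Jag1 (n = 1) received in addition only Jagged-1 (Jag1), which activates Notch receptors on neighbouring cells. The group GMCSF+TGFb+IL34 (n = 2) received TGFb (5 ng/ml) and IL34 (8 µg/ml), signals that direct monocytes toward Langerhans cells. To these same cytokines the remaining groups added FICZ (GMCSF+TGFb+IL34+FICZ, n = 2), Jag1 (GMCSF+TGFb+IL34+Jag1, n = 3) or both (GMCSF+TGFb+IL34+Jag1+FICZ, n = 3). FICZ, a photoproduct of tryptophan, is a ligand of the aryl hydrocarbon receptor (Ahr). The study calls it an agonist and the design text deposited with the data an antagonist, and its dose is not given in the sources used here. Jag1 was supplied on the surface of OP9, a stromal line of mouse bone marrow engineered to express it. The labels name OP9 co-culture for every sample, but collagen genes of stroma were near 0 in all samples without Jag1, so the ligand and the presence of the stroma cannot be told apart. Genotype, sex and age of the mice are not given in the labels. Replicates carry experiment codes (AA45, AA47 and AA48), and p-values measure only the spread between these samples, which may be technical.

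Acute-phase proteins are secreted when tissue is injured or infected, mostly by the liver under the control of interleukin-6 and interleukin-1, while some, such as Saa3, are also made locally by macrophages, fat and epithelium. Antimicrobial proteins of myeloid cells act on microbes directly or withhold metals from them, and many are stored in neutrophil granules. Both kinds limit infection, and the protease inhibitors among them protect tissue from the enzymes that neutrophils release. In the skin, such proteins mark inflamed rather than resting epidermis.

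The sequences before the gene starts are shown for the genes on which the results turn: Saa3, the gene that stood highest above all other samples in GMCSF+Jag1, and Lcn2, Slpi, S100a8 and S100a9, 4 of the 5 genes that rose when FICZ was added to Jag1 cultures. Each is the 250 bases upstream of the start of the GENCODE vM39 canonical transcript, on the strand of the gene, read from GRCm39. Capitals mark matches, on either strand, to the core motifs TGGGAA (RBPJ, the factor through which Notch acts), TTNNGCAA (C/EBP factors) and the NF-kB motif (GGG and CC with 5 bases between them).
Saa3 (chr7:46365577-46365826, minus strand): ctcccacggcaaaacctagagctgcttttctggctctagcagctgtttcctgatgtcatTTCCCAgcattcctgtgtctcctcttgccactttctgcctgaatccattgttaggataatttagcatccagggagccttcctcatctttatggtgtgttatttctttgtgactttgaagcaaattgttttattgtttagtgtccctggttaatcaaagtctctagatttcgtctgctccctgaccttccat
Lcn2 (chr2:32277810-32278059, minus strand): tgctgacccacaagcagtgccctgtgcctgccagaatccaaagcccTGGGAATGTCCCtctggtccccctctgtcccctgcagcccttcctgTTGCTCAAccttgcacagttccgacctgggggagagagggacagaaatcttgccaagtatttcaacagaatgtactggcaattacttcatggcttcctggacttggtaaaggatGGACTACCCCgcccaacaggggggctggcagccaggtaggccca
Slpi (chr2:164198428-164198677, minus strand): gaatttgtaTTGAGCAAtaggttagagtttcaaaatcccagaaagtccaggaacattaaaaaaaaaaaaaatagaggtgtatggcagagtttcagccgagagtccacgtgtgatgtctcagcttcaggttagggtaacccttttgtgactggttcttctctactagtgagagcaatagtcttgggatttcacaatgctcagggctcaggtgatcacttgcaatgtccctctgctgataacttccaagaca
S100a8 (chr3:90576035-90576284, plus strand): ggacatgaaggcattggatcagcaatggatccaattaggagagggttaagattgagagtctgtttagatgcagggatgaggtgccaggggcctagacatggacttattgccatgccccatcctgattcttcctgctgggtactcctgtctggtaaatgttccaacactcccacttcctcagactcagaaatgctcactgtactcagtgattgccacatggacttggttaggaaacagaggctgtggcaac
S100a9 (chr3:90603072-90603321, minus strand): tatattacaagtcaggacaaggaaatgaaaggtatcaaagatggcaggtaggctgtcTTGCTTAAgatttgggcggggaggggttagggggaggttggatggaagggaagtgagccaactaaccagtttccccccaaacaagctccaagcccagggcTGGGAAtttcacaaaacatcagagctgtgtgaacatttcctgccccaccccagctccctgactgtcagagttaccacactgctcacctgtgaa
The same windows were searched for TATAAA and for the Ahr core motif, GCGTG, which was in 0 of the 10 promoters, against 31.2% of 21757 protein-coding promoters searched. TGGGAA was in 3 (Saa3, Lcn2 and S100a9; 22.7% of all promoters), TTNNGCAA in 4 (Lcn2, S100a9, Slpi and Lyz1; 9.34%) and the NF-kB motif in 3 (Lcn2, Wfdc21 and Hp; 47.8%). TATAAA was in 0 of 10 (11.9%). In Lcn2 the TGGGAA match overlaps NF-kB matches on both strands, with the first base 204 bases before the start. A match is only a match of letters in this window.

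Several of the genes are neighbours in the genome. S100a8 (ENSMUSG00000056054, chromosome 3, 90567118 to 90578128, GRCm39) and S100a9 (ENSMUSG00000056071, chromosome 3, 90599931 to 90603071) lie 21.8 kb apart. Wfdc17 (ENSMUSG00000069792, chromosome 11, 83594817 to 83597095) and Wfdc21 (ENSMUSG00000051748, chromosome 11, 83637766 to 83643472) lie 40.7 kb apart. Lyz1 (ENSMUSG00000069515, chromosome 10, 117123698 to 117128775) and Lyz2 (ENSMUSG00000069516, chromosome 10, 117111557 to 117118346) lie 5.4 kb apart and are near-identical copies. Their coding sequences share 425 of 447 bases (95.1%), so the split of reads between them is uncertain. Of the stretches of 31 bases in the canonical transcripts, 37.0% of those of Lyz1 and 15.3% of those of Lyz2 occur in other genes, against 3.07% for Saa3 (mostly in Saa1), 0.304% for Hp and 0 for the other 6. Saa3 (ENSMUSG00000040026, chromosome 7, 46361422 to 46365576), Lcn2 (ENSMUSG00000026822, chromosome 2, 32274645 to 32278264), Slpi (ENSMUSG00000017002, chromosome 2, 164195990 to 164231015) and Hp (ENSMUSG00000031722, chromosome 8, 110301759 to 110305804) have no other member nearby.

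Values are the authors' normalised counts, whose sum per sample was 21.3 to 27.8 M, from an estimated 20.6 to 24.2 M reads. A single read was worth 0.892 to 1.149 normalised counts, so that a value of 0 allows up to 3 reads (2.68 to 3.45 normalised counts, counting error only). The 10 genes together took 0.0535% of the total in GMCSF+Jag1, 0.0216% and 0.0455% in GMCSF+TGFb+IL34, 0.0415% and 0.0286% in GMCSF+TGFb+IL34+FICZ, 0.00246% to 0.00522% in GMCSF+TGFb+IL34+Jag1 and 0.0194% to 0.0202% in GMCSF+TGFb+IL34+Jag1+FICZ. EpCAM transcripts, the sorting marker, were present in all samples (657 in GMCSF+Jag1 and 3952 to 14377 in the other 10), and Cd207, which encodes langerin, was at 1366 to 1784 in GMCSF+TGFb+IL34+Jag1 and at most 157 elsewhere. The GMCSF+TGFb+IL34+FICZ replicates stood apart from each other: without replicate 2, 5734 of 13057 genes (43.9%) passed the test of FICZ without Jag1, against 3 of 13095 with all samples, and without replicate 1, 0 passed. Results that rest on this group are given with and without that library.

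The acute-phase protein Saa3 was high in the single GMCSF+Jag1 sample and near the bottom of the scale everywhere else. Its level was 2789 normalised counts there, 13.5 and 12.5 in GMCSF+TGFb+IL34, 30.98 and 13.02 in GMCSF+TGFb+IL34+FICZ, 2.34, 12.1 and 40.8 in GMCSF+TGFb+IL34+Jag1, and 2.86, 5.94 and 8.00 in GMCSF+TGFb+IL34+Jag1+FICZ. GMCSF+TGFb+IL34+Jag1+FICZ lay below both groups without Jag1, the GMCSF+TGFb+IL34+Jag1 range overlapped all of these, and the lowest values rest on few reads. The GMCSF+Jag1 value was 68.3 times the highest of the other 10, a distance of 6.06 on the log2(value + 1) scale, which ranked 1 of 13095 genes. Within experiment AA45, the GMCSF+TGFb+IL34+Jag1 sample of the same flow cell held 2.34. The related liver genes Saa1, Saa2 and Saa4 were listed at 0 in all 11 samples.

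Wfdc17, a small secreted protein of the WAP domain family, was the other gene at least 2-fold above all other samples. It stood at 338 in GMCSF+Jag1, at 51.1 and 91.6 in GMCSF+TGFb+IL34, at 118 and 43.8 in GMCSF+TGFb+IL34+FICZ, at 2.24, 13.5 and 18.5 in GMCSF+TGFb+IL34+Jag1, and at 13.2, 19.3 and 14.5 in GMCSF+TGFb+IL34+Jag1+FICZ. The single sample was 2.87 times the highest of the other 10, and the groups without Jag1 lay above both groups that combined Jag1 with TGFb and IL34. Slpi, which inhibits neutrophil elastase and cathepsin G, was also highest in GMCSF+Jag1 but by less than 2-fold. Its level was 1378 there, 96.0 and 149.9 in GMCSF+TGFb+IL34, 751 and 157 in GMCSF+TGFb+IL34+FICZ, 30.6, 37.7 and 20.8 in GMCSF+TGFb+IL34+Jag1, and 199.6, 306 and 162 in GMCSF+TGFb+IL34+Jag1+FICZ. The ratio to the highest other sample, replicate 1 of GMCSF+TGFb+IL34+FICZ, was 1.83.

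**Figure D1:**
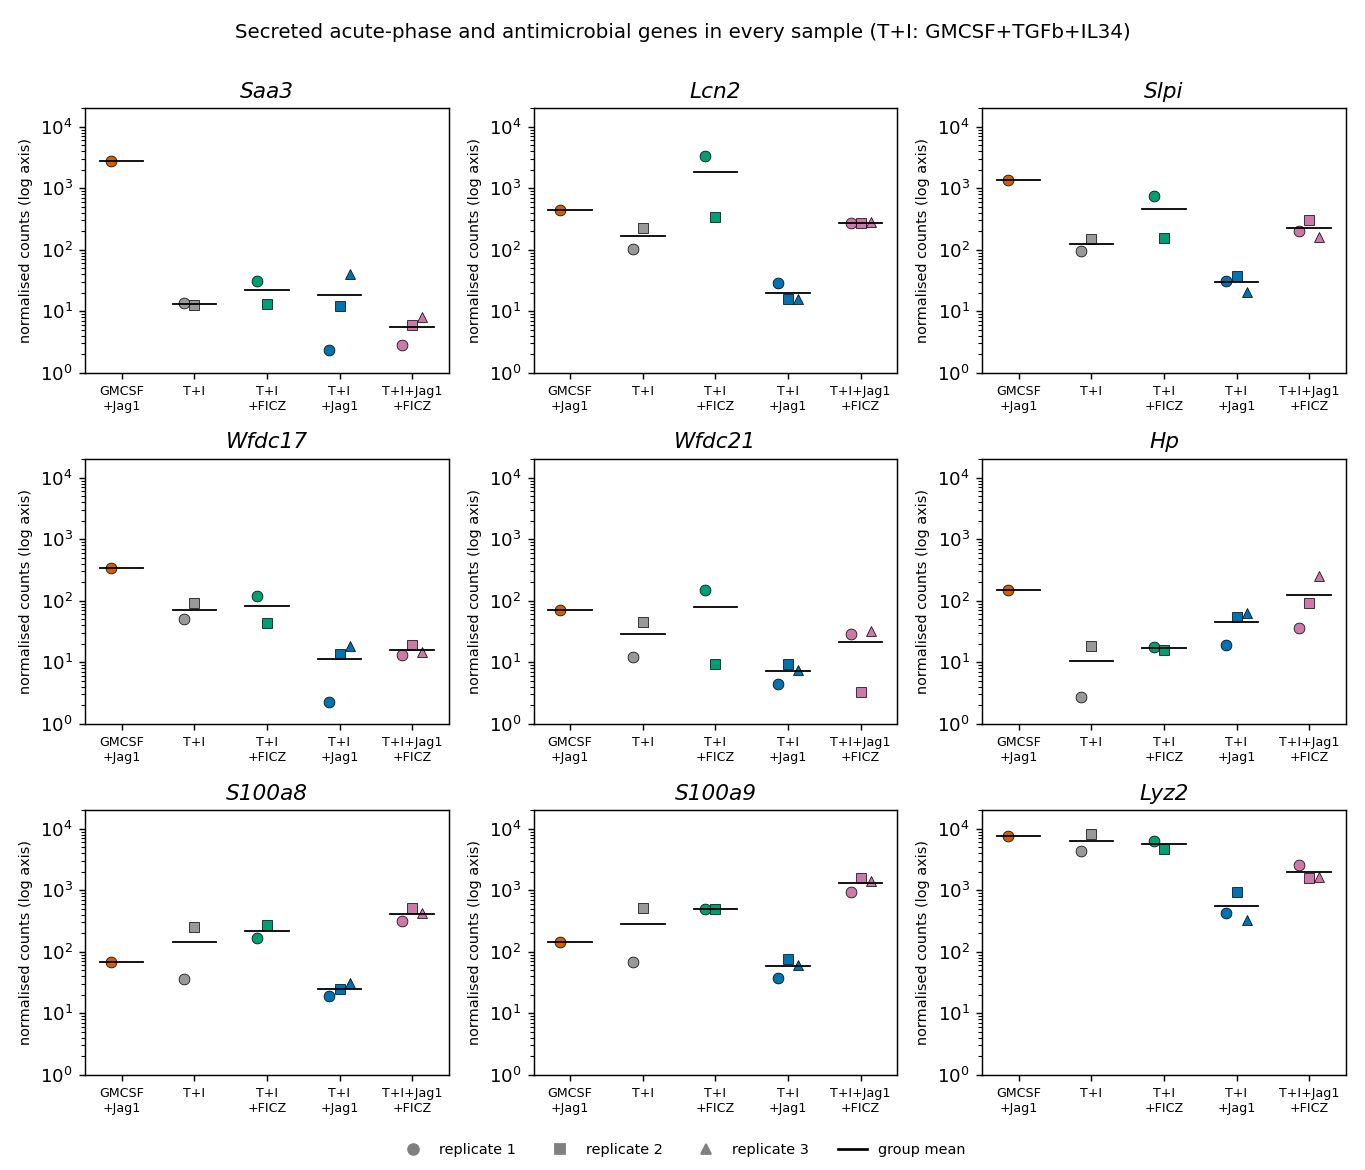
Normalised counts (log axis) of the 9 genes with signal in each of the 11 samples, by culture group, with 1 point per sample, the marker giving the replicate number and the bar the group mean (T+I: GMCSF+TGFb+IL34). Saa3 is at 2789 in GMCSF+Jag1 and at most 40.8 elsewhere, while Lcn2, Slpi, S100a8, S100a9 and Lyz2 are lowest in T+I+Jag1.

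Lcn2, a lipocalin that binds bacterial siderophores and so withholds iron, was instead highest in a culture with FICZ. It stood at 443 in GMCSF+Jag1, at 103 and 229 in GMCSF+TGFb+IL34, at 3405 and 337 in GMCSF+TGFb+IL34+FICZ, at 28.3, 15.6 and 15.9 in GMCSF+TGFb+IL34+Jag1, and at 273, 269 and 282 in GMCSF+TGFb+IL34+Jag1+FICZ. The values of the last group lay close together, whereas the GMCSF+TGFb+IL34+FICZ replicates differed 10.1-fold. In the order of group means, GMCSF+TGFb+IL34+FICZ (1871 ± 2169, SD, n = 2) exceeded GMCSF+TGFb+IL34+Jag1+FICZ (275 ± 7.12, SD, n = 3) by less than its own SD, although the samples did not overlap. The latter samples lay above both of GMCSF+TGFb+IL34 (166 ± 89.6, SD, n = 2), a pair of groups that was not tested. GMCSF+TGFb+IL34+Jag1 was lowest at 19.9 ± 7.24 (SD, n = 3).

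S100a8 and S100a9, the subunits of calprotectin, which binds zinc and manganese, were highest where Jag1 and FICZ were combined. S100a9 stood at 146 in GMCSF+Jag1, at 67.0 and 508 in GMCSF+TGFb+IL34, at 489 and 500.0 in GMCSF+TGFb+IL34+FICZ, at 37.1, 76.2 and 61.8 in GMCSF+TGFb+IL34+Jag1, and at 934, 1560 and 1418 in GMCSF+TGFb+IL34+Jag1+FICZ. S100a8 stood at 69.3, at 36.2 and 249, at 166 and 272, at 19.0, 25.0 and 31.2, and at 318, 507 and 425 in the same groups. The GMCSF+TGFb+IL34 replicates lay far apart for both genes, replicate 1 near the Jag1 level and replicate 2 near the FICZ level. The ratio of S100a9 to S100a8 was 1.84 to 3.33 over the 11 samples. With levels standardised over the 11 samples, their root mean square difference was 0.148, the smallest of any pair of the genes.

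Lyz2, the lysozyme of macrophages and neutrophils, which cuts bacterial cell walls, had the highest count of the 10 genes in all 11 samples. It stood at 7564 in GMCSF+Jag1, at 4315 and 8381 in GMCSF+TGFb+IL34, at 6418 and 4759.9 in GMCSF+TGFb+IL34+FICZ, at 434, 929.6 and 327 in GMCSF+TGFb+IL34+Jag1, and at 2589, 1611 and 1644 in GMCSF+TGFb+IL34+Jag1+FICZ. The samples without Jag1 and the GMCSF+Jag1 sample lay highest, the combination of Jag1 and FICZ between, and Jag1 without FICZ lowest. Lyz1, known from Paneth cells of the gut, was at 0 in 10 samples and at 0.907 in replicate 3 of GMCSF+TGFb+IL34+Jag1+FICZ, and was not tested.

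The remaining genes had low counts. Hp, haptoglobin, which binds free haemoglobin, stood at 152 in GMCSF+Jag1, at 2.75 and 18.5 in GMCSF+TGFb+IL34, at 17.8 and 15.7 in GMCSF+TGFb+IL34+FICZ, at 18.7, 54.5 and 64.2 in GMCSF+TGFb+IL34+Jag1, and at 36.2, 90.5 and 252 in GMCSF+TGFb+IL34+Jag1+FICZ. All cultures with Jag1 lay above those without, though the nearest values, 18.7 and 18.5, were almost equal. Wfdc21, another WAP domain protein, stood at 70.1 in GMCSF+Jag1, at 12.1 and 45.8 in GMCSF+TGFb+IL34, at 149 and 9.53 in GMCSF+TGFb+IL34+FICZ, at 4.47, 9.40 and 7.36 in GMCSF+TGFb+IL34+Jag1, and at 28.6, 3.24 and 31.7 in GMCSF+TGFb+IL34+Jag1+FICZ. Its replicates varied most in the FICZ groups, 15.6-fold without Jag1.

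Per length, the leading gene differed by group. In normalised counts per kb of the canonical transcript (group means), Saa3 led in GMCSF+Jag1 with 2769, ahead of Lyz2 with 2525 and Slpi with 1573. Lyz2 led in GMCSF+TGFb+IL34 with 2120 and in GMCSF+TGFb+IL34+Jag1 with 188. Lcn2 led in GMCSF+TGFb+IL34+FICZ with 2045, a mean that rests on replicate 1, and S100a9 led in GMCSF+TGFb+IL34+Jag1+FICZ with 2280.

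Against the other samples, 2 of the 9 genes with signal, Saa3 and Wfdc17, were at least 2-fold above all of the other 10 in GMCSF+Jag1, and 0 were 2-fold below. Among the 13095 genes that reached 10 normalised counts in 2 or more samples, 3.31% were above and 2.54% below by this measure. The samples that differ from GMCSF+Jag1 only by TGFb and IL34 are the 3 of GMCSF+TGFb+IL34+Jag1. Above their range by at least 2-fold were 8 of the 9 genes, all but S100a9, against 10.9% of all genes, with 8.22% of all genes below. The GMCSF+Jag1 value was 151 times the mean of these samples for Saa3, 46.4 times for Slpi, 29.6 times for Wfdc17, 22.2 times for Lcn2, 13.4 times for Lyz2 and 9.91 times for Wfdc21, and 3.31, 2.76 and 2.51 times for Hp, S100a8 and S100a9. With 1 sample the difference has no replicate check, and no test was made.

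**Figure D2:**
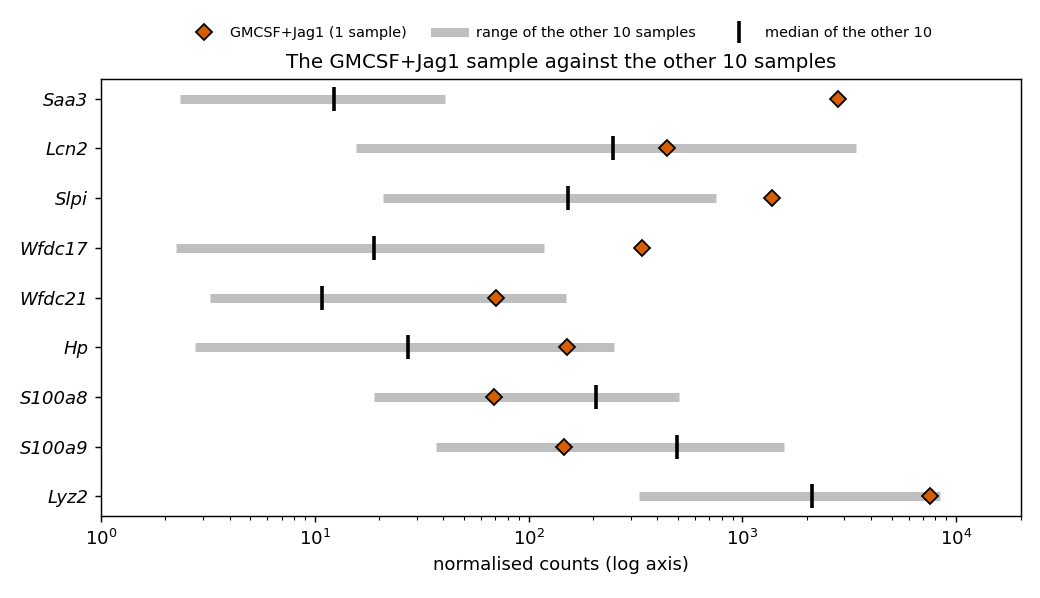
Normalised counts (log axis) of 9 genes in the GMCSF+Jag1 sample (diamond) against the range (grey bar) and median (black mark) of the other 10 samples. Saa3 lies 68.3 times and Wfdc17 2.87 times above the highest other sample, and S100a8 and S100a9 lie below the median of the others.

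The sample also differed in marker genes of other cells. Of 9 tested genes of the neutrophil lineage, 1 (Mpo, at 27.2) was 2-fold above the other 10 samples. The summed level of that list was 1710, of which 961 was Mmp9, against 202 to 5650 elsewhere. Ly6g was at 0 in GMCSF+Jag1 and in all samples but replicate 2 of GMCSF+TGFb+IL34 (11.4). Csf3r was above the highest of the other 10 samples, at 199 against 26.2 to 113. Cxcr2 (39.4 against 28.4 to 334) and Cd177 (9.26 against 6.77 to 339) were within the range of the others. Of the 14 listed genes of OP9 stroma, 11 were tested and 0 were 2-fold above or below all others. Against the 3 samples of GMCSF+TGFb+IL34+Jag1, 7 of the 14 were above the range in GMCSF+Jag1 (Fbln2 at 319 and Pdgfrb at 107 among them). Below it were 4 (Col1a1 at 37.4 and Col1a2 at 52.9 among them), and 3 were within it. The summed level of the list was 2184 against 639 to 1439, of which Thy1 held 1382 against 177 to 284. In GMCSF+TGFb+IL34+FICZ, Thy1 was at 12178 and 3578 with Col1a1 and Col1a2 at 0. Of the 8 Langerhans-like cell genes, 3 (Epcam, Mfge8 and Cldn1) were 2-fold below all others and 0 were 2-fold above. Id2 (24236) and Runx3 (21123) were above the highest of the other 10 samples (16482 and 16968), by less than 2-fold. The part of these in the levels of the secreted proteins was not tested, and in bulk samples fewer cells of a type and less RNA per cell cannot be told apart.

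The effect of Jag1 on the TGFb and IL34 cultures was asked first without FICZ, by comparing GMCSF+TGFb+IL34+Jag1 with GMCSF+TGFb+IL34. Lyz2 fell 11.8-fold with Jag1 (log2 fold change −3.56, SE 0.432, limma adjusted p 0.00109, Benjamini-Hochberg over 13095 genes), and the 2 groups did not overlap. It was the 1 lower gene of the 9 tested, with 0 higher. Among all genes, 3.96% were lower and 2.64% higher. Fold changes were computed after adding 1 to each value, so those of genes with few counts are understated.

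Another 5 genes had negative estimates with an unadjusted p under 0.05 that missed the threshold after adjustment. Lcn2 had a log2 fold change of −2.94 (SE 0.772, limma adjusted p 0.0508) and Wfdc17 one of −2.84 (SE 0.752, limma adjusted p 0.0528). Slpi had −2.02 (limma adjusted p 0.073), S100a8 −1.91 (limma adjusted p 0.13) and S100a9 −1.71 (limma adjusted p 0.192). The Jag1 samples all lay below in 6 of the 9 genes, against 22.8% of all genes. These were Lyz2, Lcn2, Wfdc17, Slpi, S100a8 and Wfdc21, while the groups overlapped for S100a9. Hp had a positive estimate of 2.28 (SE 0.899, limma adjusted p 0.193), with the Jag1 samples all above, as in 23.7% of all genes. For Saa3 the 95% interval of the log2 fold change was −2.24 to 1.85, so that the direction was not resolved.

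The median log2 fold change of the 9 genes was −1.91, against −0.004 over all genes, and 7 of them had an unadjusted p under 0.05, against 19.0% of all genes. As the genes were chosen on their levels across these samples, this only describes them and is not a test of the set. Within experiments AA47 and AA48, the log2 difference between the samples was −2.21 and −4.68 for Lyz2, and it was negative in 2 of 2 experiments for Lcn2, S100a8, Slpi, Wfdc17 and Wfdc21 and positive in 2 of 2 for Hp. S100a9 was positive in 1 and negative in 1. The AA47 pair holds replicate 1 of GMCSF+TGFb+IL34, which the authors' sheet places in AA45, and paired there the differences were −3.31 for Lyz2, −1.82 for Lcn2 and −0.84 for S100a9.

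Calls other than that of Lyz2 depended on the fit. With the experiment code of the sample descriptions as a block, Lcn2 (limma adjusted p 0.0193) and Hp (limma adjusted p 0.0296) passed beside Lyz2. Lcn2 did not with the code of the authors' sheet (limma adjusted p 0.0731) or the replicate number (limma adjusted p 0.0914) as the block. Hp also passed, as higher, with the code of the authors' sheet (limma adjusted p 0.0375), but not with the replicate number (limma adjusted p 0.164). S100a8 and S100a9 rested on replicate 2 of GMCSF+TGFb+IL34. Without replicate 1 they passed, with log2 fold changes of −3.28 and −3.16 (adjusted p 0.00949 and 0.00909), and without replicate 2 the estimates were −0.54 and −0.26 (adjusted p 0.866 and 0.971). Without replicate 3 of GMCSF+TGFb+IL34+Jag1, Wfdc17 passed (adjusted p 0.0438). Leaving out a sample of GMCSF+TGFb+IL34+FICZ, which enters this comparison only through the shared estimate of spread, gave 4 lower genes of the 9 with either replicate left out, against 8.51% and 8.49% of all genes. Stromal and neutrophil genes moved with the comparison. Of 9 tested genes of the neutrophil lineage, 2 fell and 0 rose. Of 11 tested OP9 genes, 5 rose and 1 (Thy1) fell. Col1a1, Col1a2, Col3a1 and Bgn were at 0 to 10.9 without Jag1 and at 11.2 to 369 with it. The part of these stromal and neutrophil genes in the result was not tested.

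**Figure D3:**
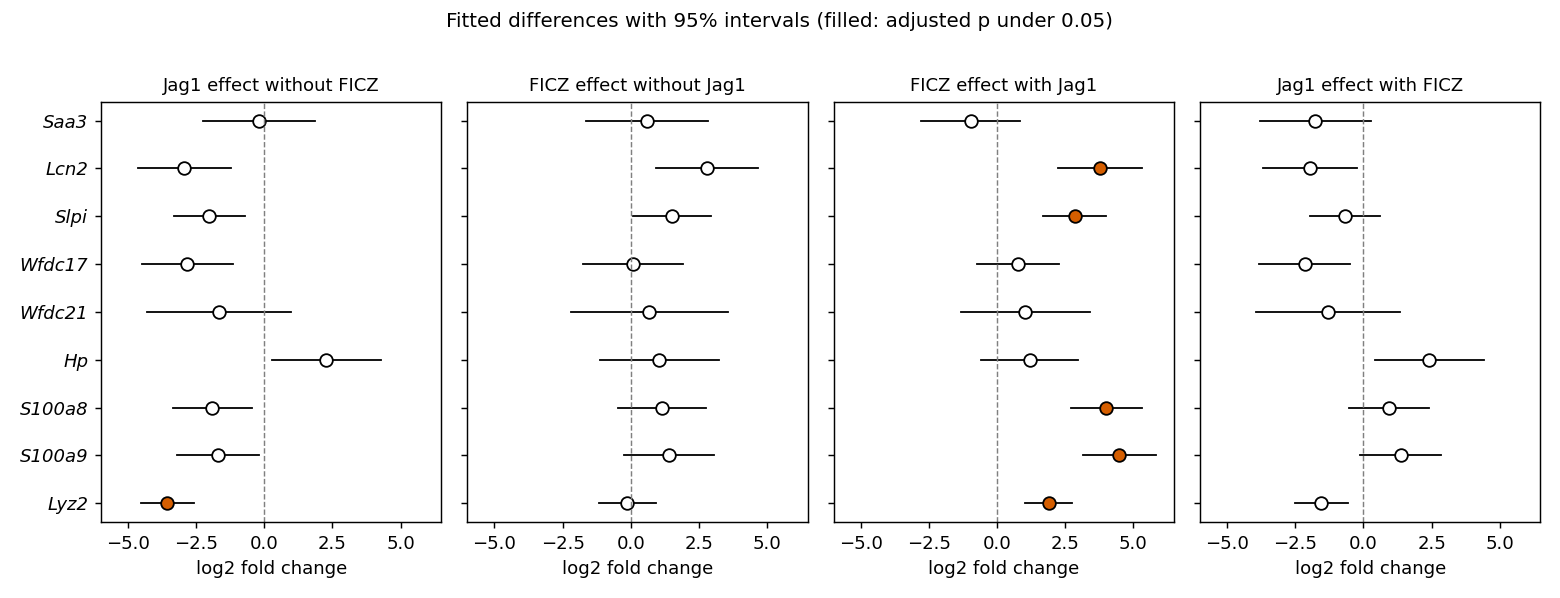
Log2 fold changes (points) with 95% intervals (lines) of 9 genes in each of 4 comparisons, on the log2(value + 1) scale, from the limma fit over all 11 samples. Filled points have an adjusted p under 0.05: Lyz2 for Jag1 without FICZ, and Lcn2, Slpi, S100a8, S100a9 and Lyz2 for FICZ with Jag1.

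FICZ was next compared in the Jag1 cultures, GMCSF+TGFb+IL34+Jag1+FICZ against GMCSF+TGFb+IL34+Jag1 (n = 3 each). This comparison shares the GMCSF+TGFb+IL34+Jag1 samples with that of Jag1 without FICZ. Calprotectin, the siderophore-binding lipocalin, the elastase inhibitor and lysozyme rose, and none of the 9 genes fell. S100a9 rose 22.4-fold, from 58.4 ± 19.8 to 1304 ± 328 (SD; log2 fold change 4.48, SE 0.603, limma adjusted p 0.000714). S100a8 rose 16.02-fold, from 25.1 ± 6.08 to 417 ± 94.7 (SD; log2 fold change 4.002, SE 0.587, limma adjusted p 0.00117). Lcn2 rose 13.6-fold, from 19.9 ± 7.24 to 275 ± 7.12 (SD; log2 fold change 3.77, SE 0.690, limma adjusted p 0.00403).

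Slpi and Lyz2 rose less. Slpi went from 29.7 ± 8.45 to 223 ± 74.5 (SD; log2 fold change 2.85, SE 0.523, limma adjusted p 0.00406) and Lyz2 from 563 ± 322 to 1948 ± 556 (SD; log2 fold change 1.90, SE 0.387, limma adjusted p 0.00697). In all 5 genes the lowest sample with FICZ lay above the highest without it. Among all genes 10.9% passed as higher and 6.71% as lower, and 23.6% had all FICZ samples above. The median of the 9 genes was 1.90, against −0.008 over all genes, again a description of genes chosen on their levels in these samples.

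Saa3, Wfdc17, Wfdc21 and Hp did not pass, and their groups overlapped. The 95% intervals of their log2 fold changes were −2.80 to 0.86 for Saa3, −0.74 to 2.26 for Wfdc17, −1.32 to 3.39 for Wfdc21 and −0.59 to 2.99 for Hp. The intervals leave room for a change of more than 2-fold in at least 1 direction in each.

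The samples of these groups were taken in 3 experiments, and the rise was seen in each. The log2 difference between the samples of the same experiment was 4.34 to 4.62 for S100a9, 3.73 to 4.29 for S100a8, 3.22 to 4.07 for Lcn2, 2.67 to 2.99 for Slpi and 0.79 to 2.58 for Lyz2. Hp was also higher in 3 of 3 experiments, by 0.72 to 1.96, while Saa3 was higher in 1 of 3, and Wfdc17 and Wfdc21 in 2 of 3. In AA45 the sample with FICZ was run on another flow cell than the one without, and in AA47 and AA48 on the same. The 5 genes passed under every alternative tried, including each replicate left out.

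**Figure D4:**
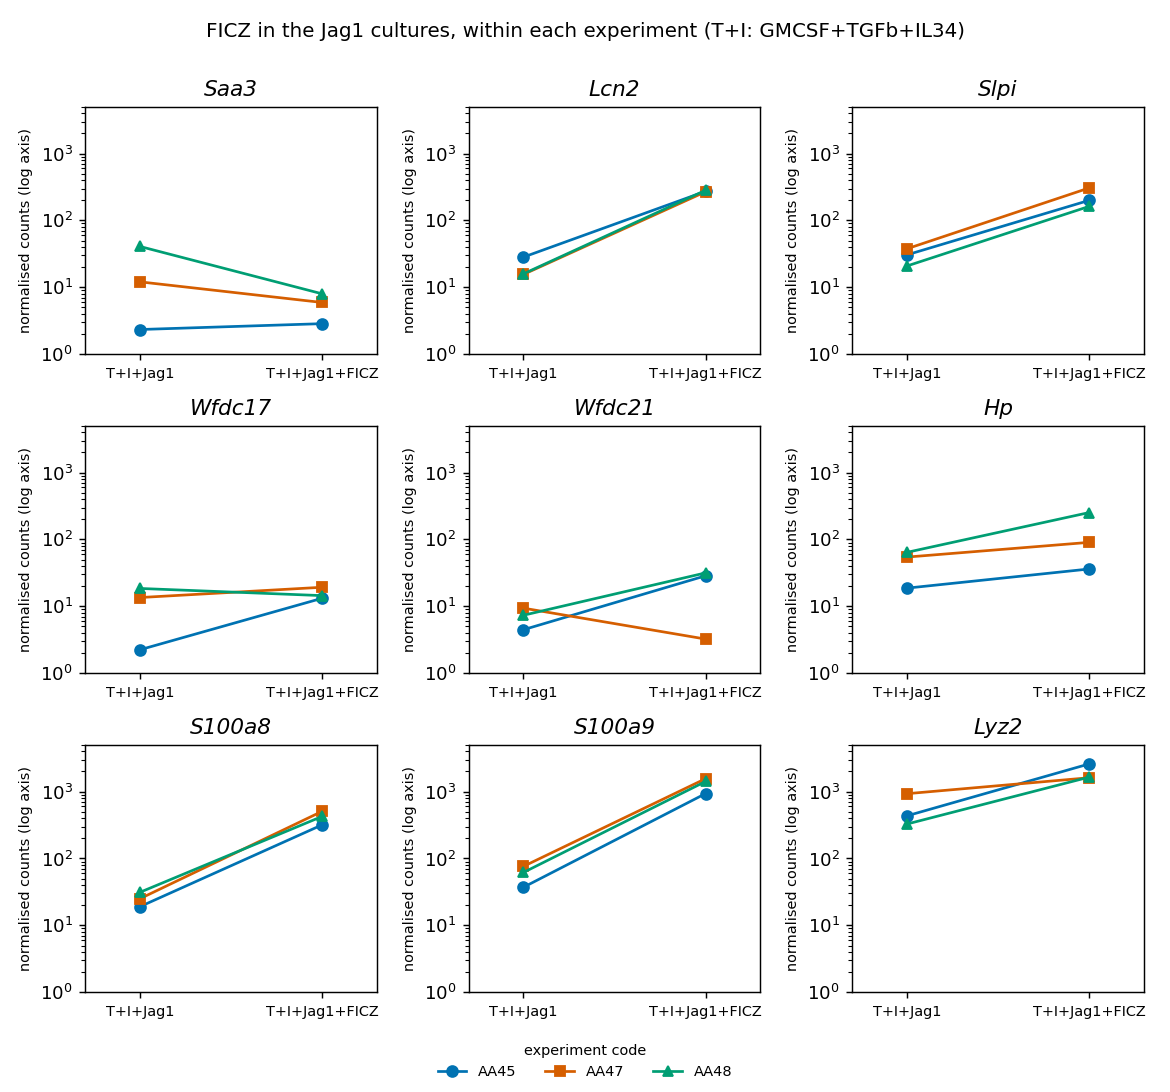
Normalised counts (log axis) of 9 genes without and with FICZ in the Jag1 cultures, with 1 line per experiment code (T+I: GMCSF+TGFb+IL34). The lines of S100a8, S100a9, Lcn2, Slpi and Lyz2 rise in all 3 experiments, while those of Saa3, Wfdc17 and Wfdc21 cross or differ in direction.

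Genes of other cells moved with this comparison. Of 9 tested genes of the neutrophil lineage, 5 rose and 0 fell. The summed level of the list went from 202 to 394 up to 4246 to 5650. Ly6g was at 0 in all 6 samples. Cxcr2 was at 28.4 to 43.7 without FICZ and at 267 to 334 with it. Cd177 was at 6.77 to 13.6 and 287 to 339, and Csf3r at 53.5 to 113 and 48.2 to 68.7. Of 7 tested monocyte genes, 4 rose and 1 fell, and of 8 Langerhans-like cell genes, 0 rose and 4 fell. Of 11 tested OP9 genes, 3 rose and 0 fell. The summed level of that list went from 639 to 1439 up to 15105 to 17037, mostly by Thy1. Thy1 was also at 12178 and 3578 in GMCSF+TGFb+IL34+FICZ, with Col1a1 and Col1a2 at 0, so the sum is not a measure of stroma alone. Col1a1 went from 191, 369 and 84.1 to 222, 625 and 1345. The part of these genes of other cells in the rise of the secreted proteins was not tested.

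Without Jag1, FICZ (GMCSF+TGFb+IL34+FICZ against GMCSF+TGFb+IL34, n = 2 each) changed 0 of the 9 genes by limma at an adjusted p of 0.05, with 2 at an unadjusted p under 0.05. Among all genes 0.0153% were higher and 0.00764% lower after adjustment, and 17.4% had an unadjusted p under 0.05, so that the share of the 9 genes was near that of all genes. Those 2 genes were Lcn2, with a log2 fold change of 2.80 (95% interval 0.92 to 4.68, limma adjusted p 0.285), and Slpi, with 1.51 (0.09 to 2.93, limma adjusted p 0.285), and for both the FICZ samples lay above, as did those of 22.6% of all genes. Both estimates rested on replicate 1 of GMCSF+TGFb+IL34+FICZ. Without it they were 1.13 for Lcn2 and 0.38 for Slpi (limma adjusted p 0.747 and 0.935). Without replicate 2 they were 4.46 and 2.64 and passed (limma adjusted p 0.000202 and 0.0022), but 43.9% of all genes passed in that fit, and each fit leaves 1 sample assumed to vary like the other groups. Within experiment AA47, as the sample descriptions code it, the log2 difference was 1.71 for Lcn2, 0.70 for Slpi, 2.88 for S100a8 and 2.88 for S100a9. By the code of the authors' sheet the pair lies in AA45, with replicate 1 of GMCSF+TGFb+IL34+FICZ, and the differences were 5.04, 2.95, 2.17 and 2.85.

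With FICZ present, adding Jag1 (GMCSF+TGFb+IL34+Jag1+FICZ against GMCSF+TGFb+IL34+FICZ) also changed 0 of the 9 genes by limma at an adjusted p of 0.05, with 4 at an unadjusted p under 0.05. Among all genes 1.41% were higher and 0.603% lower after adjustment, and 23.2% had an unadjusted p under 0.05. The 4 were Hp with a log2 fold change of 2.43 (limma adjusted p 0.165), Wfdc17 with −2.15 (limma adjusted p 0.15), Lcn2 with −1.96 (limma adjusted p 0.18) and Lyz2 with −1.54 (limma adjusted p 0.101). Hp was positive and Wfdc17, Lcn2 and Lyz2 were negative in 2 of 2 experiments. Without replicate 2 of GMCSF+TGFb+IL34+FICZ, 5 of the 9 genes passed as lower, among them Lcn2 (limma adjusted p 0.000327), Lyz2 (limma adjusted p 0.0275) and Wfdc17 (limma adjusted p 0.0295), in a fit where 20.9% of all genes passed as lower and 23.7% as higher. Without replicate 1, 0 of the 9 passed, and the estimate was −0.30 for Lcn2 (limma adjusted p 0.841), −1.32 for Lyz2 (limma adjusted p 0.304) and −1.45 for Wfdc17 (limma adjusted p 0.524). Of the 11 tested OP9 genes, 6 rose in this comparison, and their part in these estimates was not tested.

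An interaction term asked if the FICZ effect depended on Jag1. Of the 9 genes, 0 passed by limma, with 3 at an unadjusted p under 0.05. Among all genes 1.17% were positive and 0.221% negative after adjustment, and 18.8% had an unadjusted p under 0.05. The 3 were S100a9 (log2 difference 3.07, 95% interval 0.95 to 5.19, limma adjusted p 0.151), S100a8 (2.85, 0.79 to 4.92, limma adjusted p 0.164) and Lyz2 (2.02, 0.66 to 3.38, limma adjusted p 0.146). A difference in the FICZ effect was thus not established for any of the 9 genes. For S100a8 and S100a9 the estimates turned on which GMCSF+TGFb+IL34 sample was kept. Without replicate 1 they were 4.23 and 4.52 and passed (limma adjusted p 0.0281 and 0.0211), and without replicate 2 they were 1.48 and 1.62 (limma adjusted p 0.469 and 0.435). Without replicate 2 of GMCSF+TGFb+IL34+FICZ, which leaves 1 sample in that group, S100a8 passed (limma adjusted p 0.0371), in a fit where 42.1% of all genes passed.

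Proteases that Slpi inhibits, or that lie with these proteins in granules, moved with them in some comparisons. Of 8 listed, 4 were tested, and with FICZ in the Jag1 cultures all 4 rose. Neutrophil elastase (Elane) went from 9.07, 0 and 4.97 to 3050.1, 3694 and 2094, with 120 and 176 in GMCSF+TGFb+IL34, 1978 and 964 in GMCSF+TGFb+IL34+FICZ and 3.10 in GMCSF+Jag1. The log2 fold changes were 9.52 for Elane, 6.92 for the collagenase Mmp8, 4.78 for proteinase 3 (Prtn3) and 4.24 for cathepsin G (Ctsg). With Jag1 in the absence of FICZ, Elane (−5.23) and Mmp8 (−6.26) fell, and both passed the interaction test (6.28 and 5.32, limma adjusted p 0.0382 and 0.043). Prtn3 (−0.95) and Ctsg (0.50) did not pass for Jag1 without FICZ (limma adjusted p 0.562 and 0.786). In GMCSF+Jag1, where Slpi was highest, Elane was near the floor of 3 reads, while Ctsg stood at 221, above the samples of GMCSF+TGFb+IL34+Jag1 (11.9 to 33.8) and GMCSF+TGFb+IL34 (10.3 and 17.2), and Mmp8 at 357, against 0 to 6.87 and 159 and 308. Fold changes of genes near 0 depend on the added 1.

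**Figure D5:**
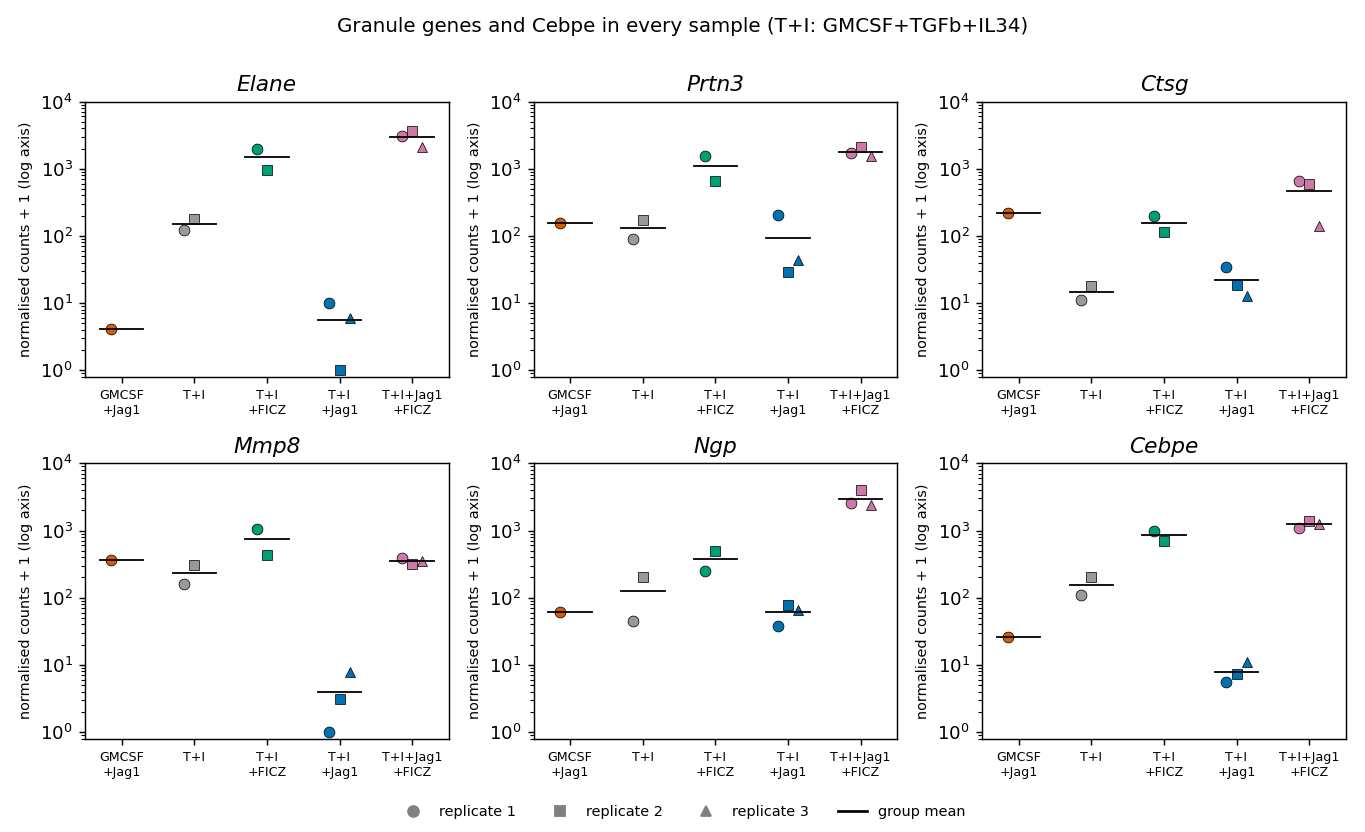
Normalised counts + 1 (log axis) of 5 granule protein genes and of Cebpe in each of the 11 samples by culture group, with 1 point per sample and the bar at the group mean (T+I: GMCSF+TGFb+IL34). Elane, Prtn3, Ctsg, Ngp and Cebpe have their highest group mean in T+I+Jag1+FICZ, and Elane is at 3.10 in GMCSF+Jag1.

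Of 43 other secreted acute-phase and antimicrobial genes listed, 21 were tested, and with FICZ in the Jag1 cultures 8 rose and 2 fell, with a median log2 fold change of 1.14. The largest rises were those of the granule proteins Ngp (5.65) and lactoferrin (Ltf, 3.20) and of the cystatin-like inhibitors Stfa3 (4.36) and Stfa2 (3.39), which belong to a family of near-identical copies. The pentraxin Ptx3 (2.75) and complement factor B (Cfb, 2.14), both known from the acute phase, also rose. The calcium-binding S100a4 and S100a6 fell, with −2.07 and −1.26, unlike S100a8 and S100a9. With Jag1 in the absence of FICZ, Ptx3 (−3.97) and the chitinase-like Chil3 (−3.39) fell and S100a4 (1.78) rose. With FICZ without Jag1, 0 of the 21 passed. Of the classical liver acute-phase genes, Saa1, Saa2, Saa4, Crp, Apcs, Fga, Fgb and Fgg were listed at 0 in all samples. Orm1, Orm2, haemopexin (Hpx) and ceruloplasmin (Cp) had signal and were highest in GMCSF+Jag1, at 18.6, 12.4, 13.4 and 183. Orm3, Lbp and Itih4 were highest in other samples, at 3.77, 10.7 and 4.39.

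Receptors for the secreted proteins changed in few cases. Of 13 listed, 11 were tested. With Jag1 in the absence of FICZ, P2rx7, an ATP-gated channel, fell (log2 fold change −3.78), as did Fpr2, a receptor for serum amyloid A (−2.42). With FICZ in the Jag1 cultures both rose (4.57 and 1.81), together with the lipoprotein receptor Scarb1 (1.17). Tlr4, which binds calprotectin, was at 282 to 673 in all 11 samples. Cd163, which takes up haptoglobin bound to haemoglobin, was at 0 in 10 samples and at 0.903 in 1.

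All 20 listed receptors and transcription factors known to induce such genes were tested. With FICZ in the Jag1 cultures 1 rose and 4 fell. Cebpe, which drives late granule genes in granulocytes, rose by 7.34 on the log2 scale, from 4.54, 6.25 and 9.89 to 1079, 1386 and 1248. The 4 that fell were Socs3 (−1.81), the interleukin-6 receptor Il6ra (−1.76), Cebpd (−1.54) and the TNF receptor Tnfrsf1a (−0.64). With Jag1 in the absence of FICZ, Cebpe fell (−4.31) and Socs3 (1.32) and Nfkbia (1.07), feedback inhibitors of cytokine and NF-kB signalling, rose. Cebpe passed the interaction test (4.86, limma adjusted p 0.00562).

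The genes nearest in pattern were found by the root mean square difference of standardised log2(value + 1) over the 11 samples, among all tested genes that are not members. For Lcn2 the nearest was Lgmn (0.153), the lysosomal protease legumain. For Slpi it was Tspan3 (0.196), for S100a8 and S100a9 Plod2 (0.214 and 0.232), for Wfdc17 Rab29 (0.180), for Lyz2 Il2rg (0.256), for Wfdc21 Mill2 (0.293), for Saa3 Tubb2a (0.308) and for Hp Ltbp2 (0.369). Among themselves the genes fell into S100a8 with S100a9 (0.148) and Lcn2 with Slpi (0.446), while Hp was no nearer than 1.08 to any other. These are descriptions over 11 samples that share groups and experiments.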

How the data were processed

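Reads were assigned to Ensembl GRCm39 transcripts by the authors with salmon, collapsed to genes with tximport and normalised with DESeq2. The deposited values are this normalised signal per gene, and tool versions are not given in the sources used here. All 11 columns were mapped to samples by their names. An experiment code in a second deposited file differed from the sample description in 1 sample, GMCSF+TGFb+IL34 replicate 1.

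Low values of 79.4% to 98.2% of genes with 1 transcript, but 52.1% to 58.1% over all genes, were whole multiples of 1 step (within 0.1 steps, up to 15 steps), so whole reads were not recovered and no count model was run. Genes with at least 10 in at least 2 samples (13095, of which 9 of the 10 described here) were fitted as log2(value + 1) with limma 3.58.1 in R 4.3.3, with 1 mean per group, all 11 samples, a trend and 6 residual degrees of freedom. P-values are two-sided and were adjusted by Benjamini-Hochberg over all genes of a comparison. Genes found in 1 sample only do not pass this filter. The fit was tested on simulated data. Promoters were read from GRCm39 (GENCODE vM39, with 21676 of 21860 genes matched).

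The genes, the lists and the comparisons were chosen with earlier results of these data known. All 10 genes were named, and from each list up to 4 genes per comparison with the largest change among those that passed. Ptx3 and Cfb for FICZ with Jag1, Ltf, Trf and Mmp9 in GMCSF+Jag1, and the stromal genes with values were named after their values were seen. So were the liver acute-phase genes with signal, Cxcr2, Csf3r and Cd177, and the inducing factors that differed by less than 2-fold in GMCSF+Jag1. GMCSF+TGFb+IL34+Jag1 and GMCSF+TGFb+IL34+Jag1+FICZ samples of the same number share an experiment code, which pairs them. Their deviations from the group means correlated weakly across genes, by 0.153, 0.122 and 0.166. Samples of unlike number were not compared in this way, so these values do not decide the pairing. The fit as reported held no term for it. Alternatives were other pseudocounts, no filter, quantile normalization, only the groups compared, blocks for replicate number, experiment code and flow cell, and each sample left out.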

Additional observations from a re-analysis of the deposited data

How the results depend on the processing

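The count of the 9 tested genes that passed was 5 for FICZ with Jag1 under every alternative, from 5 to 5 with a sample of the compared groups left out. For Jag1 without FICZ it was 1 as reported, 2 when 4 was added in place of 1, 3 with only the groups compared, 3 with experiments (as the sample descriptions code them) as a block (1 higher and 2 lower), 2 with the flow cell as a block, 2 with the experiment code of the authors' sheet as a block, chosen after seeing the data, and 1 to 3 with a sample left out. With a sample left out it was 0 to 2 for FICZ without Jag1, 0 to 5 for Jag1 with FICZ and 0 to 2 for the interaction. The cause was not tested. With the replicate number as a block, the counts were 1, 0, 5, 0 and 0 for Jag1 without FICZ, FICZ without Jag1, FICZ with Jag1, Jag1 with FICZ and the interaction, and this pairing changed no other call. The genes of GMCSF+Jag1 beyond the other 10 samples were 2, and 2 to 3 with a sample left out. Of 312 values of single genes under alternatives, 294 kept direction and side of the threshold, 18 newly passed and 0 were lost or turned. Groups of 2 limit the comparisons that use GMCSF+TGFb+IL34 or GMCSF+TGFb+IL34+FICZ, and the single GMCSF+Jag1 sample limits that without TGFb and IL34. Saa3, Wfdc17, Wfdc21 and Hp rest on few reads in some samples.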

Other observations

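Among the wider list of secreted genes, 2 stood out in GMCSF+Jag1. Ceruloplasmin (Cp), a copper-carrying oxidase of the acute phase, stood at 183 against 1.78 to 19.8 in the other 10 samples, and hepcidin (Hamp), the hormone that lowers iron export, at 27.6 against 0 to 11.6. Of the 21 tested genes of the wider secreted list, these 2 were at least 2-fold above all other samples and 0 were below. The iron carriers lactoferrin (Ltf, 31.4 against 17.9 to 503) and transferrin (Trf, 8343 against 2723 to 42851) were within the range of the other samples. Haemopexin (Hpx) was above it with low counts, at 13.4 against 0 to 8.37. Mmp9, the gelatinase to which the Lcn2 protein binds, stood at 961 against 0 to 8.29. It did not pass the filter on low values, because it was low in all other samples, and is named here after its values were seen. Of the 20 inducing factors, 1, Cebpa, was 2-fold below all others, at 541 against 1349 to 3122. Relb (19644 against 4188 to 11263), Nfkb2 (15471 against 5154 to 9295), Stat3, Nfkb1, Rela and Nfkbia were above all others by less than 2-fold. Socs3 (3972 against 6431 to 30471), Cebpd (206 against 313 to 1417), Spi1, Myd88 and Hif1a were below all others by less than 2-fold. These are values of 1 sample without a replicate.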
